A study of Mus musculus with 9 samples.

Results

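The 9 genes Calca, Calcb, Tac1, Adcyap1, Gal, Npy, Sst, Nppb and Penk encode neuropeptide precursors of sensory neurons. They were taken by symbol from the 38926 genes counted in every library, and all 9 were among the 17348 genes with enough reads to be tested. RNA was sequenced from whole dorsal root ganglia of lumbar levels L3 to L5, taken on the side of the treated paws, from wild-type male C57BL/6 mice aged 8 to 10 weeks. The groups were vehicle, cisplatin and oxaliplatin, with each drug given intraplantarly to a cumulative dose of 40 µg. Each group had 3 libraries, and each library was a pool of ganglia from 4 animals, so variation between single animals was not measured. What the vehicle contained and how long after dosing the ganglia were dissected is not stated in the labels. Cisplatin and oxaliplatin are platinum anticancer drugs that differ in the groups bound to the metal: oxaliplatin carries a diaminocyclohexane and an oxalate in place of the ammines and chlorides of cisplatin. Both are known for sensory neuropathy as a side effect.

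Neuropeptides are cut from larger precursors by prohormone convertases in dense-core vesicles, moved along the axon and released from both the spinal and the skin endings of sensory neurons. Calca and Calcb encode the calcitonin gene-related peptides (CGRP) alpha and beta, and Tac1 encodes substance P; these peptides are vasodilators or mediators of neurogenic inflammation and mark peptidergic nociceptors. Adcyap1 encodes PACAP, Nppb a natriuretic peptide and Sst somatostatin, the last pair being used by itch-sensing neurons, while Penk encodes the opioid enkephalins. Galanin (Gal) and neuropeptide Y (Npy) are scarce in intact sensory neurons and are known to be induced when a peripheral nerve is cut.

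Calca and Calcb are neighbours on mouse chromosome 7 and encode nearly the same peptide, so their shared coding stretch is shown first, because it bears on whether their reads can be told apart. In GRCm38, with the GENCODE M21 annotation, Calca (ENSMUSG00000030669.13) lies on the minus strand at chr7:114631478-114636357 and Calcb (ENSMUSG00000030666.11) on the plus strand at chr7:114718643-114723365. The 150 bases of coding sequence below were read 5′ to 3′ from the spliced transcripts Calca-201 (exons 3 and 4, within chr7:114632452-114634469) and Calcb-203 (exons 4 and 5, within chr7:114721711-114722122). Capitals mark the 10 bases that differ, and the rest, 93.3% of the window, is identical.
Calca: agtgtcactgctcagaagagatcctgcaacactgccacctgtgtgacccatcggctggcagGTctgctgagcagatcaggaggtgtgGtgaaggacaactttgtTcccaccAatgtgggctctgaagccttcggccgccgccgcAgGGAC
Calcb: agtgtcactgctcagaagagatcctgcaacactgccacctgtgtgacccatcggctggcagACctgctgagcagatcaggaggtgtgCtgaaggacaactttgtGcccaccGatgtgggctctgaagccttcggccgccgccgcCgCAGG
The longest run shared by these transcripts was 61 bases, shorter than the 75-nucleotide reads. None of the 1634 possible 75-base words of the Calca transcript occurred in Calcb, and 39 of them (2.39%) came within 3 mismatches of a Calcb word. How the counting treated such near matches is not stated in the labels, and the values of both genes carry that uncertainty over this stretch.

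The promoters of the peptide genes are shown for the cAMP response element (CRE), the site of CREB-family factors through which several neuropeptide genes are known to be regulated. RefSeq promoter sequences of GRCm38.p6, searched over the 250 bases before a start, were matched for 7 of the 9 genes; Calcb and Penk were not matched. Both strands were searched. The full element TGACGTCA was in 1.55% of the 32851 RefSeq promoters of that length and, among the peptide genes, in Sst. Its 5-base core TGACG, which the full element contains, was in 17.8% of promoters and in those of Adcyap1, Calca, Sst and Tac1. The TATA sequence TATAAA was in 12.4% of promoters and in those of Adcyap1 and Nppb. The E-box CANNTG, in 66.2% of promoters, was in those of Calca, Nppb, Sst and Tac1, and the AP-1 sequence TGANTCA, in 6.75%, was in none of the 7. A match says only that the letters are present. The 30-base windows below are given 5′ to 3′ on the strand of the gene with the match in capitals: Sst at chr16:23890874-23890903 (minus, 48 bases before the start), Calca at chr7:114636405-114636434 (minus, 65 before), Tac1 at chr6:7555006-7555035 (plus, 43 before), Adcyap1 at chr17:93198914-93198943 (plus, 91 before) and Nppb at chr4:147985857-147985886 (plus, 31 before).
Sst, full CRE: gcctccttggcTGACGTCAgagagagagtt
Calca, core: gaagcacagaggTGACGcaatctgtctggg
Tac1, core on the other strand: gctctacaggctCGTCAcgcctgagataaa
Adcyap1, core: ggactaggatgcTGACGtcttttactgata
Nppb, TATA: actcagccccagTATAAAaggcagaggcac
The windows of Calca and Tac1 hold the core in opposite orientations. Tac1 held another core 197 bases before its start, and the TATA of Adcyap1 lay 58 bases before a different start from the one shown. Gal and Npy held none of the sequences searched. Of the 5 genes shown, Calca, Tac1 and Nppb passed a test against vehicle and Sst and Adcyap1 did not, while Npy passed with oxaliplatin, as described below. Of all tested genes 38.7% were called with cisplatin and 41.6% with oxaliplatin, and a link between matches and calls was not tested.

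Reads assigned to genes ranged from 22819185 to 38808509 per library. The second vehicle library differed from the rest, with 51.0% multi-mapped reads (25.9 to 33.8% in the other 8) and 32.9% of gene reads in its 10 most abundant genes (6.81 to 8.93% in the other 8). Reads outside genes made up 26.2 to 47.7% of uniquely aligned reads with vehicle, 18.6 to 19.1% with cisplatin and 16.6 to 17.8% with oxaliplatin, so this measure moved with treatment; its part in the results below was not tested. Levels are therefore given as CPM, counts scaled to equal TMM-adjusted library totals, which take account of a few genes that fill a library. Scaling by library totals alone moved the median log2 change of all tested genes to 0.29 for cisplatin and 0.30 for oxaliplatin, and a change under that scaling has to be read against this shift. It called 917 and 996 genes lower, against 3971 and 4178 as reported here. The defining genes of sensory neurons were abundant: Avil, an actin regulator of these neurons, was at 842 CPM in vehicle, 744 in cisplatin and 805 in oxaliplatin, and Prph, the intermediate filament peripherin, at 1576, 1707 and 1748, neither passing a test.

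CGRP transcripts dominated the peptide repertoire at baseline. Levels between genes are compared here as CPM per kilobase of exon, as the mean of the 3 libraries ± their SD. In vehicle, Calca stood at 745 ± 21.6, Calcb at 103 ± 12.5 and Tac1 at 61.6 ± 1.76 CPM per kilobase. Adcyap1 followed at 20.1 ± 0.381, Nppb at 10.8 ± 2.30 and Gal at 9.38 ± 1.09. Sst was at 4.74 ± 0.354, Penk at 2.49 ± 0.315 and Npy at 0.0824 ± 0.0719. The order of the means was the same in the 3 groups. The neighbours that overlapped were Nppb and Gal in vehicle and cisplatin and Sst and Penk in cisplatin; every other pair of neighbours was separated in each library of its group.

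**Figure D1:**
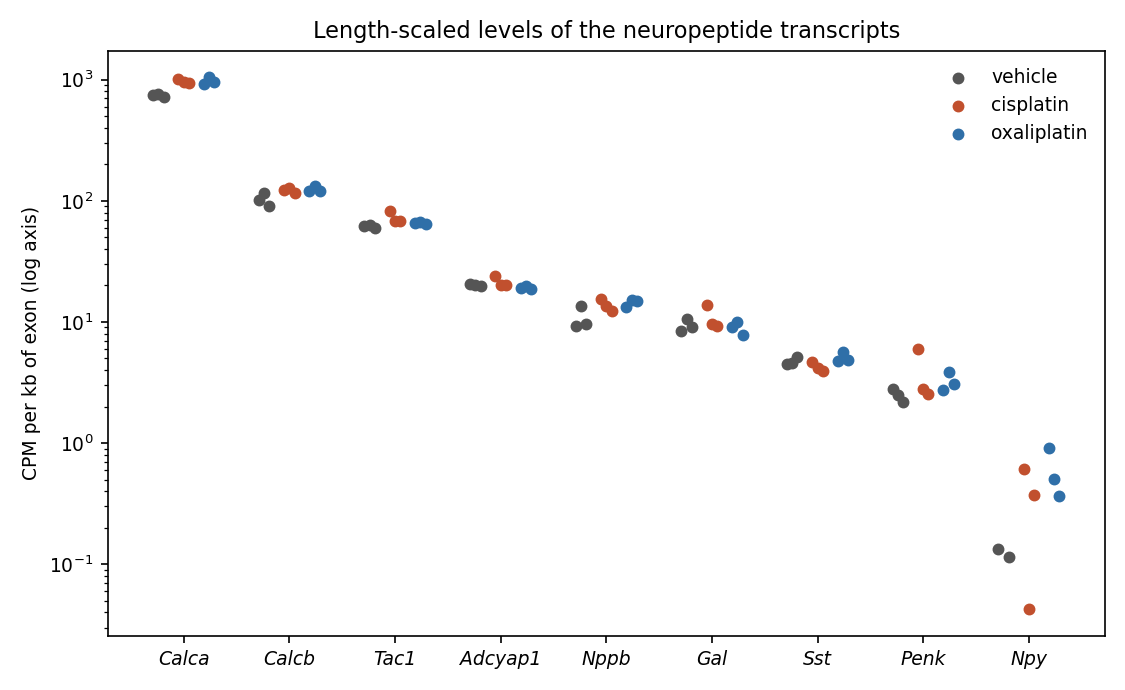
Level of each neuropeptide transcript in CPM per kilobase of exon (log axis) for the 9 libraries, 1 point per library, coloured by group. Calca is the highest gene and Npy the lowest in all 3 groups; the vehicle library with no Npy read has no point on the log axis.

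The 9 genes together took 0.162, 0.123 and 0.157% of gene reads with vehicle, 0.249, 0.228 and 0.213% with cisplatin and 0.211, 0.249 and 0.225% with oxaliplatin. The exact Clopper-Pearson 95% interval of the lowest of these shares was 0.121 to 0.124%, and it covers counting error only, since reads without molecular identifiers are not independent molecules. The share of every treated library was above that of every vehicle library, the lowest being the second vehicle library described above. Such shares are on the scale of library totals. On that scale the median change of all tested genes was 0.29 with cisplatin and 0.30 with oxaliplatin, so the separation has to be read against this shift. Calca alone supplied 73.6 to 74.6% of the peptide reads in vehicle, 75.4 to 76.8% in cisplatin and 76.6 to 77.9% in oxaliplatin.

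Calca, the precursor of alpha-CGRP, was higher with both drugs. The vehicle libraries stood at 1248, 1294 and 1222 CPM, the cisplatin libraries at 1718, 1608 and 1578, and the oxaliplatin libraries at 1543, 1759 and 1604. All 6 treated libraries lay above all 3 vehicle libraries, and the drug groups overlapped each other. Against vehicle Calca rose by 0.38 on the log2 scale with cisplatin (SE 0.08, 1.30-fold, 95% interval 1.15 to 1.47, edgeR quasi-likelihood adjusted p = 0.00331). With oxaliplatin it also rose by 0.38 (SE 0.08, 1.30-fold, interval 1.15 to 1.48, adjusted p = 0.00294). In these whole ganglia, more cells of a type and more RNA per cell cannot be told apart, for this and every later value. With the general trend of fold change on exon length and GC content removed, the rise was 0.22 (adjusted p = 0.0207) and 0.21 (adjusted p = 0.0275).

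That trend touched the whole set. Across the 16348 tested genes with a length, the Spearman correlation between exon length and log2 change was -0.408 for either drug, a description across genes of libraries that share the vehicle group. Shorter transcripts thus had more positive changes in general, and all 9 peptide genes, with 566 to 3777 bases of exon, were shorter than the median tested gene at 4059 bases. Values with the trend removed are therefore given below where they end a call.

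**Figure D2:**
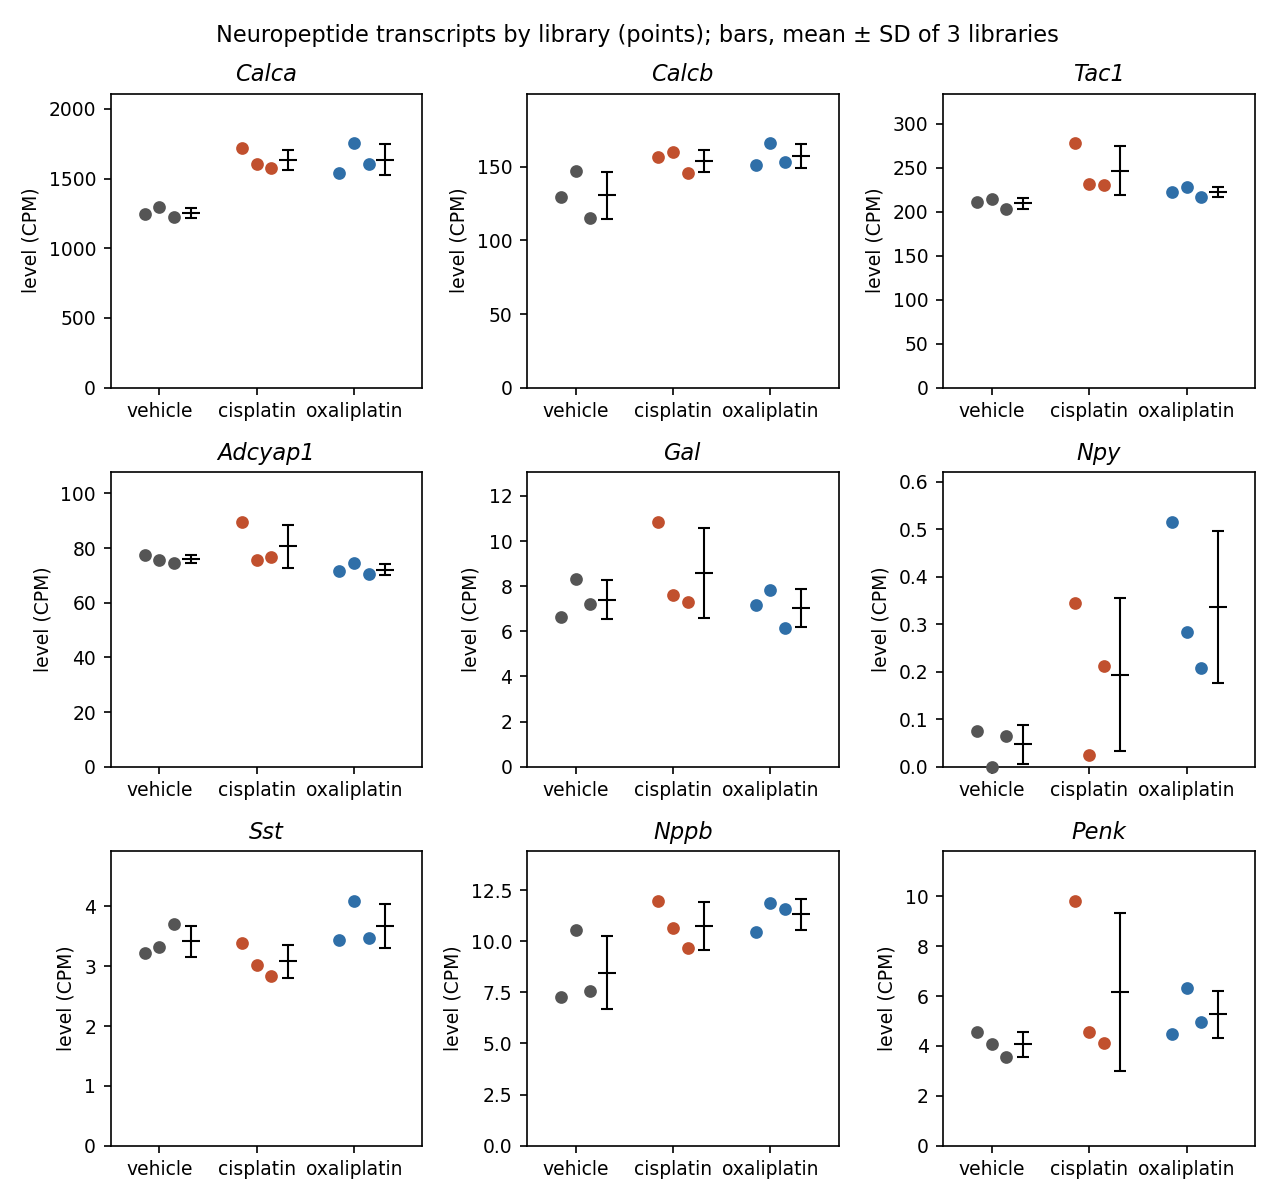
Level of each of the 9 transcripts in CPM (axes from 0, 1 panel per gene) in the 3 libraries of each group, with mean ± SD as black bars. All treated libraries lie above the vehicle libraries for Calca, whereas single libraries stand apart for Penk, Gal and Adcyap1 in cisplatin.

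Calcb, the precursor of beta-CGRP, was at 129, 147 and 116 CPM in vehicle, 156, 160 and 146 in cisplatin and 151, 166 and 153 in oxaliplatin. The second vehicle library exceeded the lowest cisplatin library, so those groups overlapped, while oxaliplatin lay wholly above vehicle. Calcb rose by 0.24 with cisplatin (SE 0.08, 1.18-fold, edgeR adjusted p = 0.0281) and by 0.27 with oxaliplatin (SE 0.08, 1.21-fold, adjusted p = 0.0160). Neither call held with the length and GC trend removed, where the changes were 0.06 (adjusted p = 0.453) and 0.08 (adjusted p = 0.324). Single libraries also decided it: without the third vehicle library the adjusted p was 0.108 for cisplatin and 0.0612 for oxaliplatin, without the first 0.0591 for cisplatin, without the first or second cisplatin library 0.0738 or 0.1004, and without the second oxaliplatin library 0.0654 for oxaliplatin.

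Tac1, the substance P precursor that lies on chromosome 6, rose with cisplatin. Vehicle libraries were at 211, 215 and 203 CPM, cisplatin libraries at 279, 231 and 231, and oxaliplatin libraries at 222, 229 and 217. The first cisplatin library was well above its fellows, and all treated libraries exceeded all vehicle libraries, the oxaliplatin ones by little. The cisplatin change was 0.24 (SE 0.07, 1.18-fold, edgeR adjusted p = 0.0207). It was 0.14 without the first cisplatin library (adjusted p = 0.0766), and the call was also lost without the third vehicle library (adjusted p = 0.0659). The oxaliplatin change of 0.09 (interval -0.07 to 0.24) did not pass (adjusted p = 0.352). Cisplatin and oxaliplatin differed by 0.15 (interval -0.01 to 0.31, adjusted p = 0.767), so the response of Tac1 was not shown to differ between the drugs.

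Adcyap1, whose peptide PACAP acts on nociceptors and blood vessels, stayed within narrow limits. It was at 77.4, 75.6 and 74.6 CPM in vehicle, 89.7, 75.7 and 76.6 in cisplatin and 71.5, 74.4 and 70.3 in oxaliplatin. The first cisplatin library was again the highest, and the oxaliplatin libraries lay just below those of vehicle. Neither change passed: 0.09 with cisplatin (interval -0.05 to 0.23, edgeR adjusted p = 0.294) and -0.07 with oxaliplatin (interval -0.21 to 0.06, adjusted p = 0.375). The difference between the drugs, 0.16 (interval 0.03 to 0.30), had an unadjusted p of 0.0237 and an adjusted p of 0.761. The upper bounds of both intervals against vehicle lie below the fitted change of Calca. With cisplatin, however, the interval of Calca began at 0.20 and overlapped that of Adcyap1, and the changes of these genes were not compared by a test.

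The itch-neuron peptides Nppb and Sst did not move alike. Nppb was at 7.27, 10.5 and 7.57 CPM in vehicle, 12.0, 10.6 and 9.65 in cisplatin and 10.5, 11.9 and 11.6 in oxaliplatin. The second vehicle library fell among the treated ones, and the other vehicle libraries lay below all of them. Nppb rose by 0.38 with cisplatin (SE 0.13, 1.30-fold, edgeR adjusted p = 0.0380) and by 0.45 with oxaliplatin (SE 0.13, 1.36-fold, adjusted p = 0.0153). Without the second vehicle library the changes were 0.55 (adjusted p = 0.00220) and 0.63 (adjusted p = 0.000956). With the length and GC trend removed they were 0.17 (adjusted p = 0.256) and 0.25 (adjusted p = 0.0846). The cisplatin call was lost in 8 of the 20 alternative analyses and the oxaliplatin call in 5.

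Sst was at 3.22, 3.32 and 3.71 CPM in vehicle, 3.38, 3.01 and 2.84 in cisplatin and 3.44, 4.10 and 3.47 in oxaliplatin. The 2 drug groups did not overlap, cisplatin being lower, and each overlapped vehicle. The changes against vehicle were -0.16 with cisplatin (interval -0.44 to 0.12, edgeR adjusted p = 0.351) and 0.10 with oxaliplatin (interval -0.17 to 0.37, adjusted p = 0.554). Cisplatin and oxaliplatin differed by -0.26 (unadjusted p = 0.0532, adjusted p = 0.767). With the length and GC trend removed, Sst was called lower with cisplatin, at -0.40 (adjusted p = 0.0216), while library totals alone gave 0.13.

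Other markers of the neurons that use these peptides were read beside Nppb and Sst. Of 13 itch-neuron markers tested, 7 fell and 0 rose with cisplatin (median -0.25), and 5 fell and 1 rose with oxaliplatin (median -0.21), against a median of 0.00 over all tested genes. Over all tested genes 22.9% were called lower with cisplatin and 24.1% with oxaliplatin. Library totals alone gave 2 higher and 1 lower with cisplatin (median 0.04) and 3 higher and 0 lower with oxaliplatin (median 0.09). On that scale the medians of all tested genes were 0.29 and 0.30. With the length and GC trend removed, 0 rose and 6 fell with cisplatin (median -0.28), and 0 rose and 5 fell with oxaliplatin (median -0.20). Il31ra, a subunit of the receptor for the itch cytokine interleukin-31, fell from 26.3 ± 0.976 to 20.03 ± 0.927 CPM with cisplatin (-0.39, edgeR adjusted p = 0.00200) and was at 24.2 CPM with oxaliplatin (-0.12, adjusted p = 0.232). Cysltr2, a leukotriene receptor, fell by 0.37 with cisplatin (adjusted p = 0.0108) and by 0.28 with oxaliplatin (adjusted p = 0.0334), the second of which was 0.01 under library totals. The kinase Jak1, which many other cells also express, fell by 0.67 and 0.53, and the serotonin receptor Htr1f by 0.66 and 0.61. Of these genes, Htr1f with cisplatin alone stayed called under library totals. The summed level of the 13 markers was 955 to 1013 CPM in vehicle, 694 to 754 in cisplatin and 708 to 835 in oxaliplatin. Its relation to the Nppb rise was not tested.

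No change of galanin passed the test. Gal was at 6.64, 8.33 and 7.22 CPM in vehicle, 10.9, 7.62 and 7.28 in cisplatin and 7.15, 7.84 and 6.17 in oxaliplatin. Only the first cisplatin library stood outside the vehicle range on the high side. The changes were 0.23 with cisplatin (interval -0.11 to 0.57, edgeR adjusted p = 0.272) and -0.05 with oxaliplatin (interval -0.39 to 0.29, adjusted p = 0.815). Without the first cisplatin library the cisplatin change was 0.03.

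Npy reads were few in every library. The counts were 2, 0 and 2 in vehicle, 12, 1 and 8 in cisplatin and 21, 12 and 8 in oxaliplatin, against a detection floor of 3 counts in a library. In CPM these were 0.0750, 0 and 0.0650 in vehicle, 0.344, 0.0241 and 0.213 in cisplatin, and 0.516, 0.284 and 0.207 in oxaliplatin. All vehicle libraries and the second cisplatin library were below the floor, which lay at 0.0711 to 0.188 CPM, and the oxaliplatin libraries were all above it. Npy rose with oxaliplatin by a fitted 2.56 (SE 0.87, interval 0.66 to 4.45, edgeR adjusted p = 0.0334). It passed the count filter only through treated libraries, so this test is not free of that selection. With only the groups compared, Npy did not pass the filter and was not fitted against vehicle. The summed reads gave a ratio to vehicle of 6.19 (counting interval 2.24 to 23.8) from 41 against 4 reads. The call was lost without any one of the 3 vehicle libraries (adjusted p = 0.0773, 0.0626 and 0.0882 in order), without the first or second oxaliplatin library (0.0866 and 0.0518) and with the length and GC trend removed (0.0675). With cisplatin the ratio was 3.38 (counting interval 1.14 to 13.5) from 21 against 4 reads, and the fitted change of 1.71 (SE 0.98) did not pass (adjusted p = 0.188); without the second cisplatin library it was 2.27 (adjusted p = 0.0444). The drugs differed by -0.85 (interval -2.13 to 0.44, adjusted p = 0.833).

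Genes of nerve injury and of sympathetic neurons, which also use neuropeptide Y, were read beside these peptides. Atf3, an injury-induced transcription factor, was at 5.67 CPM in vehicle, 5.89 in cisplatin (0.05, edgeR adjusted p = 0.808) and 8.23 in oxaliplatin (0.53, adjusted p = 0.00961). Sprr1a, a protein of regenerating axons, was at 0.108, 0.239 and 0.351 CPM, with changes of 1.10 (adjusted p = 0.136) and 1.66 (adjusted p = 0.0210). Both passed with oxaliplatin, and both calls were lost with the length and GC trend removed (0.34, adjusted p = 0.0725, and 1.43, adjusted p = 0.0507). Sprr1a stood at only 0.0375 to 0.163 CPM in the vehicle libraries, near the detection floor. Like Npy, Sprr1a passed the count filter only through treated libraries, so its test is not free of that selection. It is among the injury genes counted next as rising with oxaliplatin. Of 17 injury genes tested, 4 rose and 3 fell with cisplatin (median 0.05) and 7 rose and 3 fell with oxaliplatin (median 0.07), where 38.7 and 41.6% of all tested genes were called. With the trend removed the counts were 3 higher and 4 lower with either drug, and under library totals 5 and 9 higher and 0 lower. Gap43, a growth cone protein, rose by 0.35 and 0.28, while the transcription factor Jun fell by 0.29 and 0.34, changes that were -0.00 and -0.04 under library totals. The oxaliplatin call of Gap43 was lost with the trend removed (0.09, adjusted p = 0.153). Of the sympathetic markers, Dbh, the noradrenaline-making enzyme, had 0 reads in all vehicle libraries and at most 3 in any other, and Phox2a had 0 in all 9. Of that list of 10 genes, 5 passed the filter, and Th rose with oxaliplatin, from 86.3 to 103 CPM (0.26, adjusted p = 0.0282), a call lost with the trend removed (0.08, adjusted p = 0.448). Th is also made by a class of touch-sensing neurons of the ganglion. The summed level of the list was 90.6 to 99.4 CPM in vehicle, 87.5 to 116 in cisplatin and 109 to 113 in oxaliplatin, and its part in the Npy values was not tested.

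Penk, the enkephalin precursor, varied most among the cisplatin libraries. It was at 4.57, 4.07 and 3.54 CPM in vehicle, 9.84, 4.56 and 4.12 in cisplatin and 4.50, 6.33 and 4.97 in oxaliplatin. The first cisplatin library was far above the other 8, and both drug groups overlapped vehicle. The changes did not pass: 0.60 with cisplatin (SE 0.30, edgeR adjusted p = 0.130) and 0.38 with oxaliplatin (SE 0.30, adjusted p = 0.328). Without the first cisplatin library the cisplatin change was 0.10, and the difference between the drugs went from 0.22 to -0.28. Without the third cisplatin library the change was 0.84 and passed (adjusted p = 0.0333), and so it did at 0.64 with no count filter (adjusted p = 0.0235). Penk was the only one of the 9 whose span from start to end overlapped another annotated gene, A830012C17Rik on the opposite strand. That gene had 0 to 7 reads per library, and overlap of exons was not examined.

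The first cisplatin library was the highest of the 9 libraries for 5 of the peptide genes (Tac1, Adcyap1, Gal, Nppb and Penk), against 12.9% of all tested genes. The third vehicle library was the lowest for 4 (Calca, Calcb, Tac1 and Penk), against 16.2%, and the second oxaliplatin library the highest for 3 (Calca, Calcb and Sst), against 12.2%.

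In all, 4 of the 9 genes rose with cisplatin (Calca, Calcb, Tac1 and Nppb) and 0 fell, where 38.7% of all tested genes were called, 15.8% higher and 22.9% lower. With oxaliplatin 4 of 9 rose (Calca, Calcb, Nppb and Npy, the last having passed the filter only through treated libraries) and 0 fell. Over all tested genes 41.6% were called with oxaliplatin, 17.5% higher and 24.1% lower. The share called in either direction was thus near that of the whole transcriptome, and nothing particular to peptide genes can be read from it. The median change of the 9 was 0.24 with cisplatin and 0.27 with oxaliplatin, against 0.00 over all tested genes in both, and 8 and 7 of the 9 were above 0, where 50.4% of tested genes were. With the length and GC trend removed the medians of the 9 were 0.17 and 0.09. Under library totals they were 0.55 and 0.59, where those of all tested genes were 0.29 and 0.30. Without the first cisplatin library, or without the third vehicle library, 1 of the 9 was called with cisplatin; without the first vehicle library 2 were. For oxaliplatin 1 was called without the third vehicle or the second oxaliplatin library, and 2 without the first vehicle library. Without the second vehicle library, which stood apart in depth and composition, 4 were called with cisplatin and 3 with oxaliplatin. With the length and GC trend removed, 2 rose and 1 fell with cisplatin and 1 rose with oxaliplatin, Calca being called with both drugs.

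Groups of libraries did not overlap for 2 of the peptide genes with cisplatin, both higher (Calca and Tac1), where 48.0% of tested genes did not overlap, 21.3% higher and 26.7% lower. With oxaliplatin 4 were higher (Calca, Calcb, Tac1 and Npy, the last with the filter limit given above) and 1 lower (Adcyap1). Of all tested genes 50.5% did not overlap with oxaliplatin, 23.1% higher and 27.4% lower. The comparisons share the vehicle libraries, so likeness between them is not a separate result.

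Directly compared, cisplatin and oxaliplatin differed in 0 of the 9 genes by edgeR's adjusted p, and likewise in each of the 20 alternatives, DESeq2 and limma-voom included; 1 gene, Adcyap1, had an unadjusted p under 0.05. The background was 2 of 17348 genes, or 0.0115%. For Calca the difference was -0.00 (interval -0.18 to 0.18) and for Calcb -0.03 (interval -0.20 to 0.14), so differences larger than about 0.2 on the log2 scale lie outside those intervals. For Nppb it was -0.07, for Gal 0.28 and for Penk 0.22. Libraries of the drugs did not overlap for 2 genes that were higher with cisplatin (Tac1 and Adcyap1) and 1, Sst, that was lower, where 14.1% of tested genes did not overlap, 8.04% higher and 6.1% lower.

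**Figure D3:**
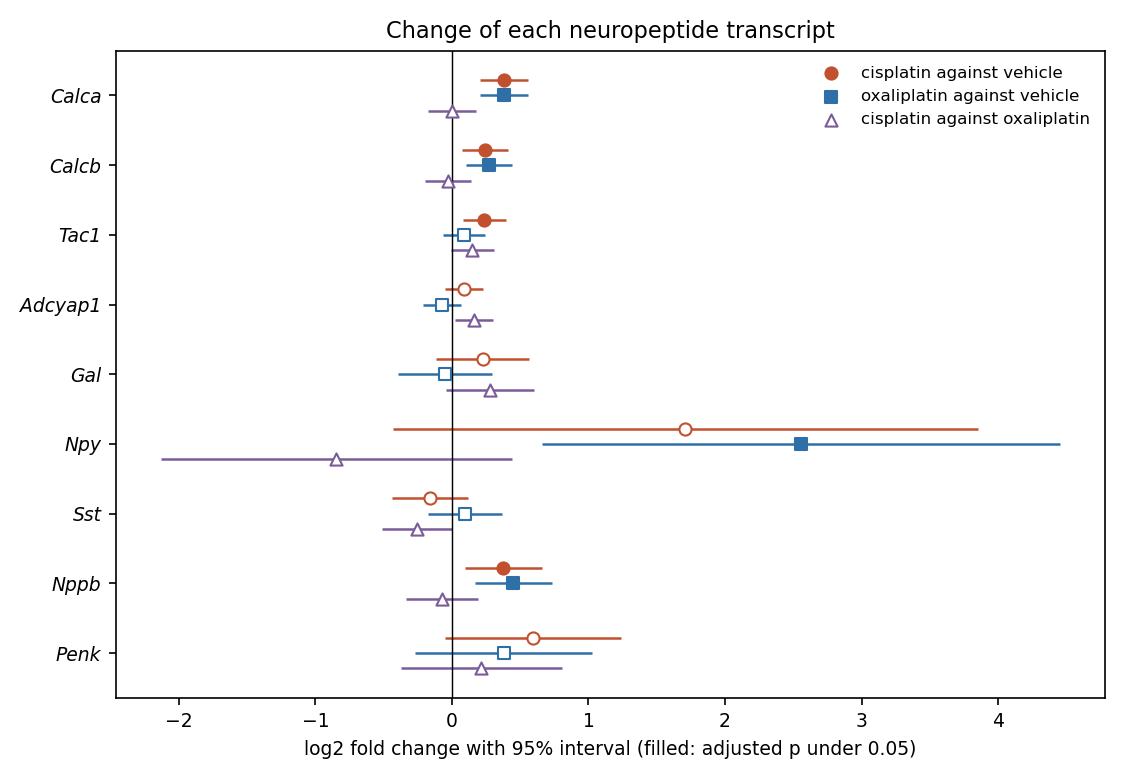
Log2 fold change of each neuropeptide gene with its 95% interval for the 3 comparisons; filled symbols passed at an adjusted p under 0.05. Calca, Calcb and Nppb are filled for both drugs against vehicle, Tac1 for cisplatin and Npy for oxaliplatin against vehicle, and no gene is filled for cisplatin against oxaliplatin.

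Ratios of read counts within a library are free of the scaling between libraries, and they are given as descriptions with no test. The ratio of Calca to Adcyap1 reads was 16.1, 17.1 and 16.4 in vehicle, 19.2, 21.2 and 20.6 in cisplatin and 21.6, 23.7 and 22.8 in oxaliplatin. The 3 groups did not overlap, so the mix of CGRP and PACAP transcripts differed in every treated library from every vehicle library. The ratio of Calca to Tac1 reads was 5.92, 6.02 and 6.02 in vehicle, 6.16, 6.95 and 6.84 in cisplatin and 6.95, 7.69 and 7.40 in oxaliplatin, again higher in each treated library. The ratio of Tac1 to Adcyap1 reads was 2.72, 2.84 and 2.72 in vehicle and 3.01 to 3.11 in the 6 treated libraries. These genes differ in length, however, and with the length and GC trend removed the changes with cisplatin were 0.22 for Calca, 0.21 for Tac1 and 0.08 for Adcyap1, and with oxaliplatin 0.21, 0.09 and -0.06.

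The ratio of Calca to Calcb reads, 9.66, 8.80 and 10.6 in vehicle, 10.99, 10.03 and 10.8 in cisplatin and 10.2, 10.6 and 10.5 in oxaliplatin, overlapped between the groups. No shift in the mix of the CGRP pair was therefore separable from the spread of the vehicle libraries. The ratio of Nppb to Sst reads was 2.26, 3.17 and 2.04 in vehicle, 3.54, 3.53 and 3.39 in cisplatin and 3.04, 2.90 and 3.34 in oxaliplatin. Cisplatin lay above vehicle and oxaliplatin overlapped it, the second vehicle library being again the high one.

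**Figure D4:**
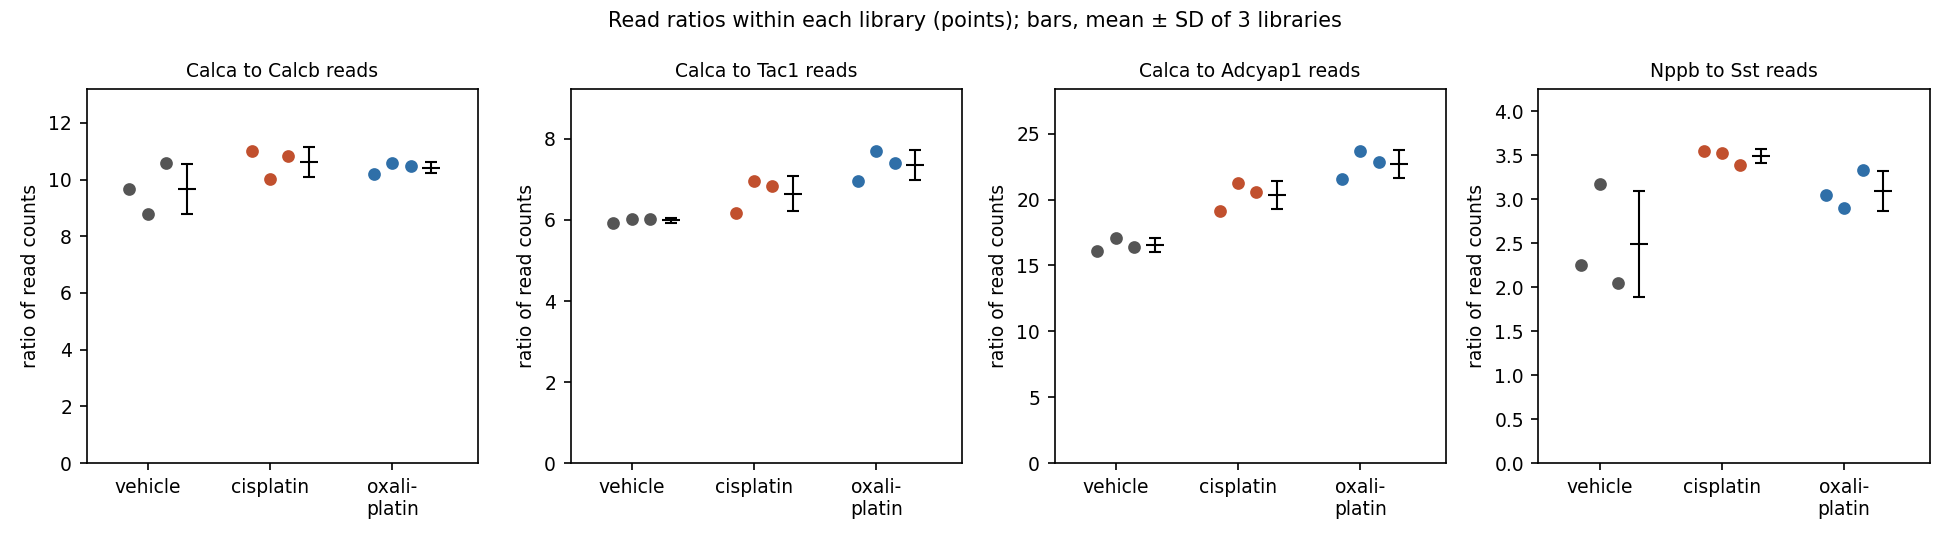
Ratios of read counts within each library (1 point per library, axes from 0) for 4 pairs of neuropeptide genes, with mean ± SD as black bars. The Calca to Adcyap1 ratio separates the 3 groups (16.1 to 17.1, 19.2 to 21.2 and 21.6 to 23.7), and the Calca to Calcb ratio does not.

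A list of receptors for these peptides also held partner proteins and related receptors, so its counts do not describe receptors of the 9 peptides alone. Of it, 24 of 31 genes passed the filter, and 7 rose and 5 fell with cisplatin, against 6 and 3 with oxaliplatin (medians 0.13 and 0.11). These shares are near the 38.7 and 41.6% called over all tested genes, and library totals gave 10 higher and 1 lower with cisplatin and 11 and 1 with oxaliplatin. The CGRP receptor consists of the core Calcrl and the partner Ramp1, with Crcp as a coupling protein. Calcrl did not pass (0.07 and -0.11), while Ramp1 rose from 1.12 to 2.30 CPM with cisplatin (1.11, edgeR adjusted p = 0.0377) and to 2.58 with oxaliplatin (1.29, adjusted p = 0.0164). The related partners Ramp2 (0.44 and 0.54) and Ramp3 (1.12 and 1.27) and Crcp (0.28 and 0.33) rose with both drugs. With the length and GC trend removed, both calls of Crcp were lost (0.09, adjusted p = 0.215, and 0.13, adjusted p = 0.0788), as was the cisplatin call of Ramp1 (adjusted p = 0.0638). The C-type natriuretic peptide receptor Npr2 fell from 108 to 75.0 CPM with cisplatin (-0.53, adjusted p = 0.000402) and to 77.8 with oxaliplatin (-0.47, adjusted p = 0.000703). Npr1, which binds the Nppb peptide, rose by 0.55 (adjusted p = 0.0382) and 0.66 (adjusted p = 0.0147) from 3.81 CPM, and the clearance receptor Npr3 by 0.50 and 0.47.

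The mu opioid receptor Oprm1, which enkephalins can activate, fell from 52.3 to 30.9 CPM with cisplatin (-0.77, edgeR adjusted p = 0.000501) and to 33.6 with oxaliplatin (-0.65, adjusted p = 0.00137). The delta receptor Oprd1, their preferred partner, did not pass (0.19 and 0.23). Npy1r, a receptor of neuropeptide Y, fell by 0.24 (adjusted p = 0.0247) and 0.41 (adjusted p = 0.00117), the first being 0.06 under library totals. The galanin receptor Galr1 fell with cisplatin by 0.34 (adjusted p = 0.0476) and stood at -0.31 with oxaliplatin (adjusted p = 0.0627). The somatostatin receptor Sstr4 rose with cisplatin by 0.63 (adjusted p = 0.00658) and stood at 0.37 with oxaliplatin (adjusted p = 0.0683). The PACAP receptor Adcyap1r1 was at -0.02 in both comparisons. Under library totals Oprm1 stayed called (-0.49 and -0.36), while Npr2 (-0.24 and -0.18), Npy1r and Galr1 did not.

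Genes that process precursors were split between the directions: of 16 tested, 3 rose and 2 fell with cisplatin and 3 rose and 3 fell with oxaliplatin (medians 0.01 and 0.02). Cpd, a carboxypeptidase of the secretory pathway, fell by 0.45 and 0.35, calls lost under library totals (-0.16 and -0.05). The protease Ctsl rose by 0.30 and 0.28, Qpct, which forms the pyroglutamate end of some peptides, rose by 0.46 with cisplatin (0.25 with oxaliplatin, adjusted p = 0.159), and the convertase Pcsk7 rose by 0.19 with cisplatin and 0.24 with oxaliplatin. Of 21 dense-core vesicle genes tested, 1 rose and 8 fell with either drug (medians -0.14 and -0.10). Over all tested genes 38.7 and 41.6% were called, 22.9 and 24.1% lower. The shares called in the processing list and in the vesicle list (42.9%) are thus near those of all tested genes. Under library totals the vesicle medians were 0.15 and 0.20, where those of all tested genes were 0.29 and 0.30. The vesicle membrane protein Ptprn fell from 166 to 101 CPM with cisplatin (-0.71, edgeR adjusted p = 0.000231) and to 95.3 with oxaliplatin (-0.80, adjusted p = 9.28e-05). Kif1a, the motor that carries these vesicles, fell by 0.81 and 0.64, and Cadps, a priming factor for their release, by 0.56 and 0.51. Resp18, a lumenal vesicle protein, was the one that rose (0.23 and 0.27). With the length and GC trend removed, Resp18 was at 0.01 (adjusted p = 0.848) and 0.05 (adjusted p = 0.489), and Cadps at -0.18 (adjusted p = 0.0701) and -0.17 (adjusted p = 0.0957), so neither passed. Under library totals Ptprn stayed called with both drugs and Kif1a with cisplatin (-0.43 and -0.53), while Cadps did not pass.

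Of 13 peptide-degrading enzymes tested, 2 rose and 4 fell with cisplatin and 2 rose and 3 fell with oxaliplatin (medians -0.09 and 0.02). The shares called, 46.2 and 38.5%, are near the 38.7 and 41.6% over all tested genes. The aminopeptidase Lnpep fell from 489 to 244 CPM with cisplatin (-1.005, edgeR adjusted p = 6.95e-05) and to 254 with oxaliplatin (-0.94, adjusted p = 7.6e-05). Ide, the insulin-degrading enzyme, fell by 0.37 and 0.34. Dpp4, which trims neuropeptide Y among other peptides, rose from 3.92 to 8.20 CPM with cisplatin and to 9.22 with oxaliplatin (1.08 and 1.26). Mme, neprilysin, which cleaves substance P and enkephalins, fell by 0.22 with cisplatin (adjusted p = 0.0343) and 0.37 with oxaliplatin (adjusted p = 0.00219), and its changes were 0.15 and 0.06 with the length and GC trend removed. Lnpep stayed called under library totals, and Ide and Mme did not.

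Of 34 further peptide and growth factor precursors, 10 passed the filter. Nmb, neuromedin B, another itch-related peptide, rose from 84.3 to 104 CPM with cisplatin (0.30, edgeR adjusted p = 0.00274) and to 107 with oxaliplatin (0.35, adjusted p = 0.000999). Neither call held with the length and GC trend removed, where the changes were 0.05 (adjusted p = 0.489) and 0.11 (adjusted p = 0.156). Bdnf, a neurotrophin stored in the same vesicles as the peptides, rose from 40.7 to 51.2 CPM with cisplatin (0.33, adjusted p = 0.00150) and was at 39.1 CPM with oxaliplatin (-0.06, adjusted p = 0.490). The drugs differed in Bdnf by 0.39, which did not pass over all genes (adjusted p = 0.151). Vip, a peptide known for its induction by nerve injury, had 0 to 4 reads per library, and Grp had 0 to 5.

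**Figure D5:**
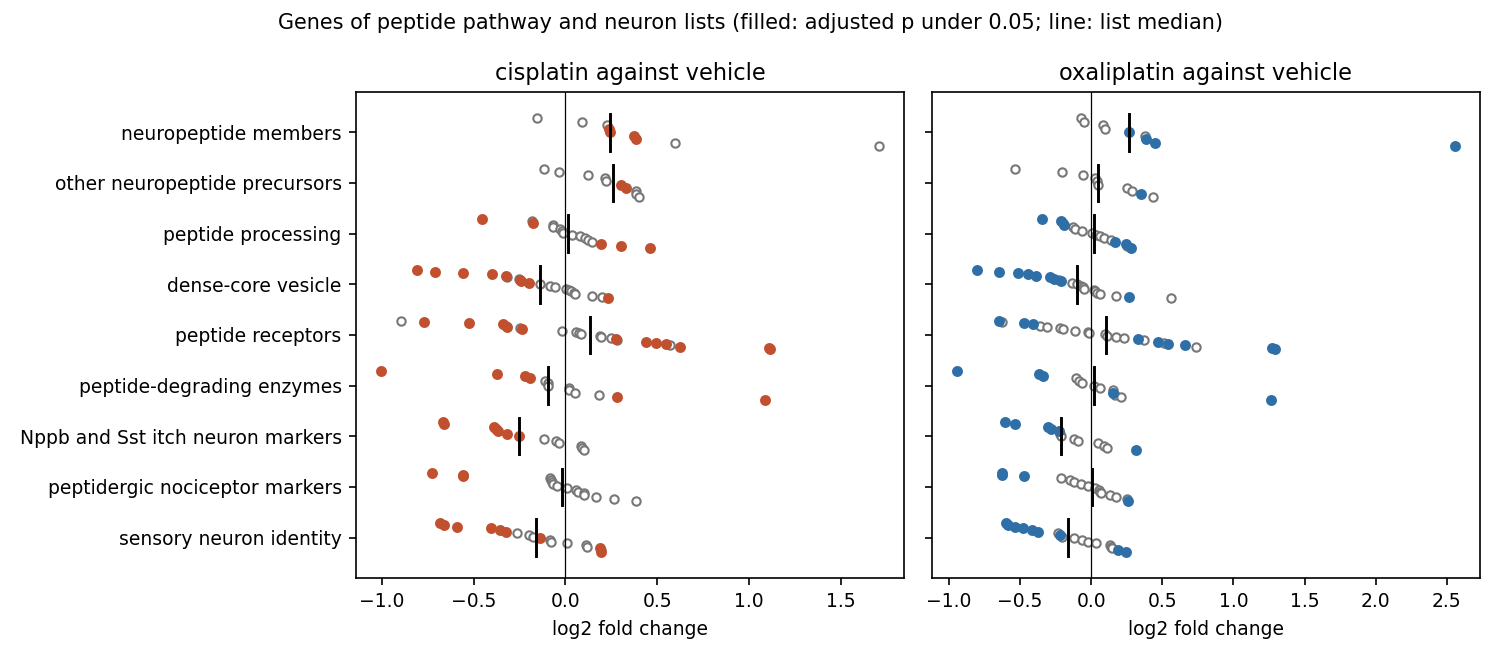
Log2 fold change of each tested gene in the lists of peptide pathway and neuron genes, with cisplatin (left) and oxaliplatin (right) against vehicle; filled points passed at an adjusted p under 0.05 and the line marks the list median. The itch-neuron markers have medians of -0.25 and -0.21, the dense-core vesicle genes of -0.14 and -0.10, and the peptide genes of 0.24 and 0.27. Under library totals alone the first were 0.04 and 0.09, the second 0.15 and 0.20 and the third 0.55 and 0.59. On that scale the medians of all tested genes were 0.29 and 0.30. With the length and GC trend removed, the itch-neuron markers had medians of -0.28 and -0.20, the vesicle genes of -0.17 and -0.15 and the peptide genes of 0.17 and 0.09.

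Markers of peptidergic nociceptors, the neurons in which CGRP and substance P are made, were counted beside Calca and Tac1. Of 16 tested, 0 rose and 3 fell with cisplatin and 1 rose and 3 fell with oxaliplatin (medians -0.02 and 0.01). The list is not confined to these neurons. The 1 that rose was Th, described above for other neurons, and Kit is also among the mast cell markers below. The counts therefore do not describe peptidergic neurons alone. Library totals gave 5 higher and 1 lower with cisplatin (median 0.27) and 5 higher and 0 lower with oxaliplatin (median 0.31). On that scale the medians of all tested genes were 0.29 and 0.30. Their summed level was 2810 to 2909 CPM in vehicle, 2474 to 2605 in cisplatin and 2548 to 2707 in oxaliplatin. The heat and capsaicin channel Trpv1 (-0.05 and -0.07) did not pass. The transcription factor Prdm12 fell by 0.73 and 0.62, and the receptors Ret and Kit by 0.56 with cisplatin and by 0.47 and 0.63 with oxaliplatin; of these calls, that of Prdm12 with cisplatin alone held under library totals. Of 18 genes of sensory neuron identity, 2 rose and 7 fell with either drug (medians -0.16 and -0.16). Over all tested genes 38.7 and 41.6% were called, 22.9 and 24.1% lower. Under library totals the medians of the 18 were 0.13 and 0.14, below those of all tested genes on that scale. With the length and GC trend removed, 1 rose and 9 fell with either drug (medians -0.17 and -0.17). The sodium channel Scn9a, at -0.66 and -0.60, was among those that fell, and its calls were lost under library totals (-0.37 and -0.30).

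Markers of other cells moved with treatment as well, and their part in the peptide values was not tested. Over all tested genes 38.7% were called with cisplatin and 41.6% with oxaliplatin, 15.8 and 17.5% higher. Of 18 myeloid and mast cell markers, 16 rose and 1 fell with cisplatin and 13 rose and 1 fell with oxaliplatin, with summed levels of 257 to 349 CPM in vehicle, 413 to 559 in cisplatin and 339 to 454 in oxaliplatin. Of 11 fibroblast and leptomeningeal markers, 10 and 8 rose and 0 fell, with summed levels of 1893 to 2154, 2410 to 2790 and 2484 to 2663 CPM. Of 12 Schwann cell markers, 9 rose and 2 fell with cisplatin and 4 rose and 2 fell with oxaliplatin; of 9 satellite glia markers, 2 rose and 2 fell, then 1 rose and 3 fell. Of 8 lymphocyte markers tested, 2 rose and 0 fell with either drug, with summed levels of 3.30 to 5.76, 5.98 to 7.60 and 5.53 to 8.01 CPM. Spinal cord and motor neuron markers summed to 206 to 224, 221 to 226 and 232 to 237 CPM, with 1 of 7 tested falling with cisplatin and 1 rising and 3 falling with oxaliplatin, and Chat, their defining enzyme of acetylcholine synthesis, had 0 to 6 reads per library.

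The genes whose levels followed each peptide gene most closely were found by Pearson's r of log2(CPM + 0.5) over the 9 libraries, among 13382 other genes with a mean of at least 1 CPM. These values are descriptions, since the libraries share treatment, depth and composition. Calca was closest to Arf2 (r 0.992), Arpc4 (0.991) and Tgm2 (0.990), and Calcb to Cox7a2 (0.986), Tmem159 (0.985) and Rpl7a (0.983). Tac1 was closest to Rpl35a (0.976) and Nppb to Tmco1 (0.984). Among the others, Penk was close to Cartpt (0.956), itself a peptide precursor, and Adcyap1 to Calcrl (0.932), the CGRP receptor core described above. The closest gene was Ppp2r5a for Penk (0.968), S1pr1 for Gal (0.944), Scrn2 for Npy (0.970) and Anks1b for Sst (0.884).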

How the data were processed

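The authors deposited raw read counts per gene symbol for each library, from stranded total RNA libraries read as 75-nucleotide single ends. Per the submitters' processing notes, STAR, SAMtools and HTSeq were used with mouse build mm10 (GRCm38). No source used here gives versions, annotation or strand setting, so antisense and overlapping reads cannot be told apart. Reads assigned to no single gene, 42.8 to 74.5% of those recorded, were left out.

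All 9 libraries were fitted together by group in edgeR 4.0.16 (R 4.3.3) with TMM scaling, filterByExpr and the quasi-likelihood test. P-values were adjusted by Benjamini-Hochberg over the 17348 genes tested and called under 0.05. SE is the size of the log2 change over the root of F. Exon lengths came from GENCODE M21, in which 91.6% of symbols matched exactly 1 gene. The fit was tested on simulated counts. Alternatives used other scalings and filters, limma-voom (limma 3.58.1), DESeq2 1.42.0, a block on replicate number, removal of length and GC trends (mgcv 1.9.3), only the groups compared, and each library left out. The peptide genes and gene lists were chosen with earlier results of these data known. Named were all 9 peptide genes, fixed reference genes, peptide receptors, and examples from the 3 tested genes of smallest p per list and comparison; others named in passing were chosen after their values were seen.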

Additional observations from a re-analysis of the deposited data

How the results depend on the processing

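Of 535 values of single peptide genes under the alternatives, 471 kept direction and call, 32 lost and 11 gained a call and 21 changed sign. Calca stayed called with cisplatin in all 20 alternatives (0.22 to 0.68) and with oxaliplatin in 19; with replicate block and trend removal it was 0.21 (adjusted p = 0.0504). No pairing by replicate number was seen: same-number correlations were -0.21 to 0.17, and different-number ones -0.32 to 0.28. With 3 libraries per group this cannot show that pairing was absent. With the replicate block the same number of peptide genes, 4, was called with each drug. Peptide genes called, 4 in the analysis reported, were 8 with cisplatin under library totals and 1 with oxaliplatin under trend removal, with or without the replicate block; leaving out single libraries gave 1 to 5 and 1 to 4. Processing, vesicle, receptor and degradation genes called with cisplatin, 32 as reported, were 20 to 31 with single libraries left out. Genes called between the drugs, 2 as reported, were 68 under library totals, 16 with no count filter, 15 by DESeq2, 1 by voom or with 1 CPM required, and 0 with the replicate block (with or without trend removal) or with only those 2 groups; single libraries left out gave 0 to 2. Called genes split into 2744 higher and 3971 lower with cisplatin as reported and 5987 and 917 under library totals; with oxaliplatin 3043 and 4178 became 6408 and 996.

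Signs changed as follows, in genes with no call before or after. Under library totals Sst with cisplatin was 0.13, and Adcyap1 and Gal with oxaliplatin 0.23 and 0.25. With trends removed, Gal with cisplatin was -0.016 (-0.031 with the replicate block) and Sst with oxaliplatin -0.14 (-0.14). Gal with oxaliplatin was -0.14 to 0.045 with single libraries left out, the highest without the second vehicle library. Between the drugs, Calca was 0.00064 with DESeq2 size factors, 0.00098 by voom, 0.00062 by DESeq2, 0.00053 with the block, 0.014 with trends removed (0.015 with the block), and -0.045 to 0.055 with single libraries left out. With single libraries left out, Calcb was -0.057 to 0.017 and Penk -0.28 (without cisplatin 1) to 0.43. The cause was not tested. Npy could not be fitted under the 1 CPM filter, nor against vehicle with only the groups compared, so it had 18 alternatives against vehicle and 19 between the drugs. At the reported depth, the 95% interval of the median gene spanned 0.196 either side with cisplatin and 0.195 with oxaliplatin, which limits what a change under that size can show.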
